A study of Homo sapiens with 18 samples.

Results

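The matrix metalloproteinase (MMP) genes of human chromosome band 11q22 lie side by side in one cluster. The members were taken by gene name: MMP1, MMP3, MMP7, MMP8, MMP10, MMP12, MMP13, MMP20 and MMP27, with every probe of the array that carried one of these names. This gave 10 probes for the 9 genes out of 41000 distinct probes with 30484 gene names, 1 probe for each gene except MMP12, which had 2. Of these, 3 probes of 3 genes, MMP1, MMP7 and MMP10, passed the filter on dim spots that left 28665 probes for the tests.

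The cells were A549, an established line of human lung adenocarcinoma epithelium, and RNA of 6 groups was measured on 18 Agilent arrays with a single dye, 3 for each group, with the replicates of a group lettered A, B and C. All cells spent 2 h in medium without serum and then recovered in medium with serum. Treated cells received 0.02 mg/mL of Ludox silica NPs during the 2 h, either SM30, with a diameter of 9 nm, or AS30, with a diameter of 18 nm, while controls were handled alike but received no NPs. SM30-treated cells and their controls recovered for 3 h, and AS30-treated cells and their controls for 3 h or for 22 h, so SM30 had no group at 22 h and each treated group had controls of its own. One cell line was studied. The study's methods call the replicates biological, and the labels do not say how their cultures were kept apart.

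MMPs are zinc-dependent enzymes that cut proteins of the extracellular matrix and of the cell surface. They are made as inactive proenzymes, are switched on when a propeptide is cut away, often by plasmin or by another MMP, and are held in check by the tissue inhibitors of metalloproteinases (TIMPs). The cluster holds the collagenases MMP1, MMP8 and MMP13, which cut fibrillar collagen, the stromelysins MMP3 and MMP10, which have a broad range of substrates and can activate procollagenases, the small enzyme matrilysin (MMP7), the macrophage elastase MMP12, the tooth enamel protease MMP20 and the less studied MMP27. Several of these genes are known to be switched on in epithelium and fibroblasts by growth factors, cytokines and injury, through AP-1 (JUN and FOS proteins), ETS and related factors.

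All 10 probes mapped to the minus strand of chromosome 11 in the hg18 build that the array files use. The MMP7 probe lay at chr11:101899239-101899298, the MMP10 probe at chr11:102146615-102146674, the MMP1 probe at chr11:102165907-102165966 and the MMP3 probe at chr11:102211904-102211963. The order along the chromosome was MMP7, MMP20, MMP27, MMP8, MMP10, MMP1, MMP3, MMP12 and MMP13, and in the RefSeq gene table no other protein-coding gene stood between MMP7 and MMP13. The next protein-coding genes were TMEM123 on the MMP7 side and DCUN1D5 on the MMP13 side. The exon or UTR that each probe lies in is not analysed here.

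Promoters of 5 of the 9 members, MMP7, MMP8, MMP10, MMP20 and MMP27, were in the RefSeq table used, whose build is GRCh38.p14. Those of MMP10, which rose in the data below, and of MMP7, which had the highest signals but no called change, are shown for the last 110 bases before the start, 5′ to 3′ on the minus strand, from chr11:102780629-102780738 and chr11:102530748-102530857. The capitals mark TGANTCA, a loose form of the AP-1 site.
MMP10: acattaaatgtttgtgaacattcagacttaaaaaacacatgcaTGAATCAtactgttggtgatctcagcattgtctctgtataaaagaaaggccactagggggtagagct
MMP7: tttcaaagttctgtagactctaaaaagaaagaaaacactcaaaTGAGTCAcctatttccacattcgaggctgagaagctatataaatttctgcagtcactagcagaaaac
In both genes the match lay from base -67 to base -61, counted back from the start. TGANTCA reads the same on both strands and was found in the 250 bases before the start in 3 of the 5 members (MMP7, MMP10 and MMP20), against 6.57% of the 35116 promoters in the table. The letters were TGAGTCA in MMP7 and TGAATCA in MMP10 and MMP20. The stricter form TGAGTCA, searched on both strands, was found in 1 of the 5, MMP7, against 4.2% of promoters. The letters TATAAA, searched on both strands, were found in 4 of the 5, all but MMP27, against 10.7% of promoters. The ETS core AGGAAG, on both strands, was found in 1 of the 5, MMP7, against 28.7%. These matches are letters in a window and were not tested as binding sites.

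The labelled cell type was checked first. Of 11 markers of A549 cells and of airway epithelium, 10 were well above background on all 18 arrays and NKX2-1 on 17. Of 7 fibroblast markers, COL1A1 was well above background on all arrays, LUM on 6, PDGFRA on 5, DCN on 1, and COL1A2, COL3A1 and PDGFRB on none. Of 6 leukocyte markers, CD14 and CD68, which lung epithelial cells also express, were well above background on all arrays, CSF1R on 9, MARCO on 3, CD163 on 1, and PTPRC, the marker of all leukocytes, on none. Of 4 endothelial markers, VWF was well above background on 6 arrays, KDR on 2, CDH5 on 1 and PECAM1 on none. Between 66.0% and 83.7% of spots on an array were positive and significant against the local background, and 0 spots were saturated.

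Levels below are log2 normalized signals with all spots of a probe kept, which here means dim spots too, while outlier-flagged spots were left out. A probe is called well above background on an array where more than 50% of its spots were. MMP1, the interstitial collagenase, was printed as 10 spots on each array. In SM30 controls its log2 signal was 4.32 in A, 4.75 in B and 4.66 in C, and in SM30-treated cells it was 11.76, 11.78 and 11.47. In AS30 controls after 3 h it was 5.99, 6.58 and 3.25, and in AS30-treated cells 11.05, 12.41 and 11.56. All treated arrays at 3 h stood far above all control arrays, and the low value among the controls was that of AS30 control C, where 2 of the 10 spots were positive and none was well above background. In AS30 controls after 22 h the log2 signal was 2.96, 2.76 and 3.53, with 0, 0 and 3 positive spots, and in AS30-treated cells it was 9.96, 5.80 and 9.05. No control array at 22 h thus held MMP1 well above background, and the treated groups did not overlap their controls at either time, although AS30-treated B at 22 h stood well below A and C and had 2 of its 10 spots well above background. The spots of an array, without those flagged as outliers, agreed closely where the gene was bright. The SD between spots ran from 0.03 to 0.21 on the log2 scale over the treated arrays other than AS30-treated B at 22 h, which was dim and had 0.24.

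The order of the group means was AS30-treated at 3 h (11.67 ± 0.69, SD, n = 3), SM30-treated (11.67 ± 0.18), AS30-treated at 22 h (8.27 ± 2.19), AS30 controls at 3 h (5.27 ± 1.78), SM30 controls (4.58 ± 0.23) and AS30 controls at 22 h (3.08 ± 0.40). The first 2 differed by less than their spread, and so did the 2 control groups at 3 h.

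**Figure D1:**
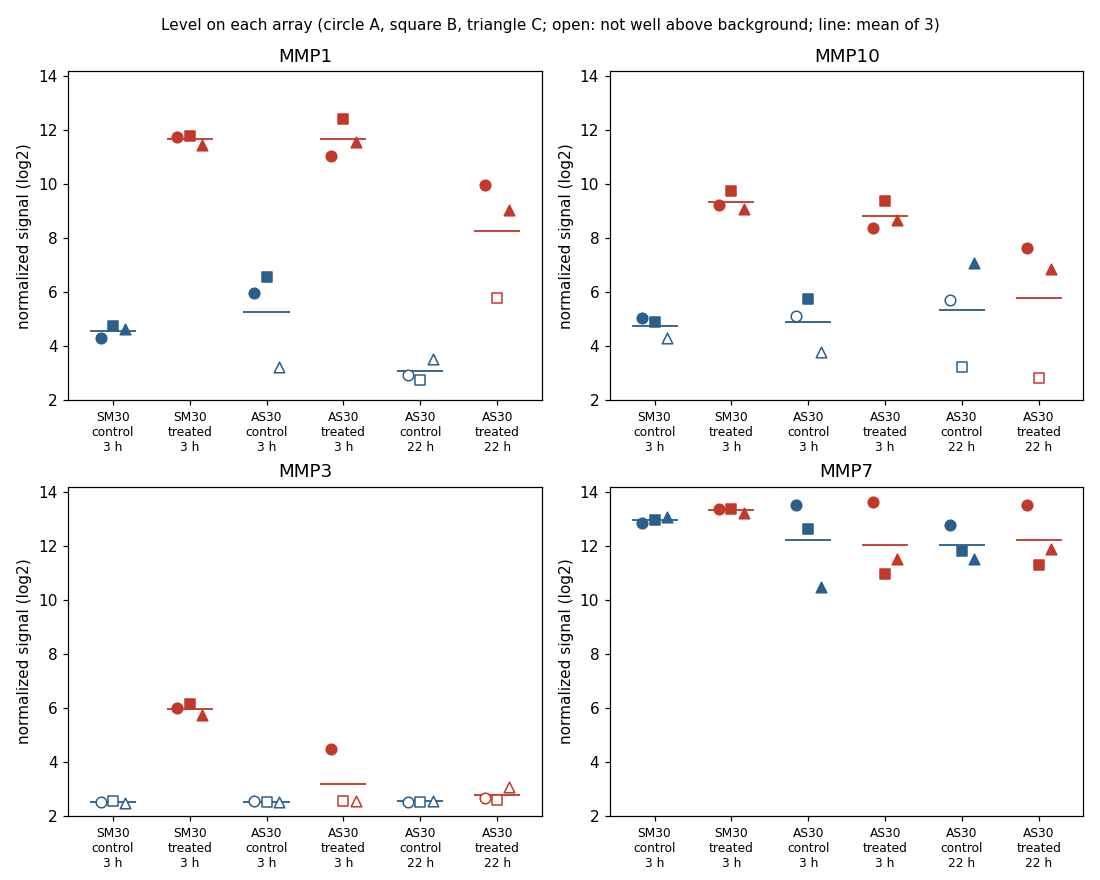
Log2 normalized signal of MMP1, MMP10, MMP3 and MMP7 on each of the 18 arrays, by group, with controls in blue and treated cells in red, the mean of 3 as a line and open points where the probe was not well above background. MMP1 and MMP10 stood above all controls in both treated groups at 3 h, MMP3 only in SM30-treated cells as a group, and MMP7 spread widely within the AS30 groups whether treated or not.

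The signal of treated cells was set over that of the control with the same letter, and the 9 log2 ratios were tested with limma over all probes, with Benjamini-Hochberg adjusted p-values and a threshold of 0.05. After SM30, MMP1 ratios were 7.45, 7.03 and 6.81, a mean of 7.09 (SE 0.38, limma adjusted p = 0.00088), or 136.6-fold, and no probe of the 28664 tested rose more. After AS30 at 3 h the ratios were 5.05, 5.84 and 7.24, a mean of 6.04 (SE 0.38, limma adjusted p = 0.0049), or 65.9-fold, the rank 2 of 28596. The ratio of pair C was over only the positive spots of its control, where no spot was well above background, and it was 8.31 with all spots kept. With only spots well above background kept, pairs A and B gave a mean of 5.44, so the fold depends on how this dim control is read. At 22 h the controls allow only a bound. Against the lowest signal that counted as well above background on the control arrays, MMP1 was at least 4.52-fold higher in AS30-treated cells at 22 h, with log2 means of 8.27 and 3.08 and 2 of 3 treated arrays well above background. Normexp background correction was run with an offset of 50 added to every signal, which makes the folds of dim genes smaller. Under it the 3 controls' own signals were not below that lowest signal, so its value of 2.38-fold is a plain ratio and not a bound. With all spots kept the 3 ratios, each over a control not well above background, were 7.01, 3.04 and 5.52, and that fit called the rise (limma adjusted p = 0.036). In the filtered fit only pair C, with 3 of 10 positive spots in its control, gave a ratio, 4.04 (SE 0.67, limma adjusted p = 0.035), so the class had 1 sample there, which is assumed to vary like the other classes. This call was lost in the fit of 18 arrays with no pairing by letter (log2 change 3.26, limma adjusted p = 0.14) and with normexp (1.30, limma adjusted p = 0.09). It was also lost without AS30 pair A at 22 h (limma adjusted p = 0.096), without AS30 pair B at 3 h (0.051) and without SM30 pair A, B or C (0.072, 0.076 and 0.064). Normexp with this offset also gave smaller changes at 3 h, 3.39 after SM30 and 3.26 after AS30, both still called.

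MMP10, stromelysin 2, had 1 spot on each array. Its log2 signal was 5.05, 4.92 and 4.29 in SM30 controls and 9.24, 9.74 and 9.09 in SM30-treated cells. It was 5.12, 5.75 and 3.81 in AS30 controls at 3 h and 8.38, 9.40 and 8.67 in AS30-treated cells. As with MMP1, each treated array at 3 h was above all control arrays of the same time. At 22 h the controls were at 5.71, 3.22 and 7.11 and AS30-treated cells at 7.64, 2.84 and 6.86, so these 2 groups overlapped and letter B was the lowest in both.

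The MMP10 ratios after SM30 were 4.19, 4.82 and 4.79, a mean of 4.60 (SE 0.39, limma adjusted p = 0.0028), or 24.3-fold, the rank 10 of 28664. After AS30 at 3 h the fit used the ratios of pairs A and B, 3.26 and 3.65, since control C was too dim, and gave 3.46 (SE 0.47, limma adjusted p = 0.027), or 10.97-fold, the rank 6 of 28596. Control A was positive but not well above background, so of these pairs only B had a control well above background. With all spots kept pair C had a ratio of 4.86. At 22 h the ratios of pairs A and C were 1.93 and -0.24, and the mean of 0.85 (SE 0.47, limma adjusted p = 0.34) was not called. The AS30 call at 3 h was near the threshold: leaving out pair A gave a limma adjusted p of 0.1, pair B 0.18, and SM30 pair A, B or C, which enter the estimate of the spread, 0.064, 0.065 or 0.056. With normexp, whose offset makes the folds of dim genes smaller, the changes were 1.39 after SM30 and 1.11 after AS30 at 3 h, both called.

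**Figure D2:**
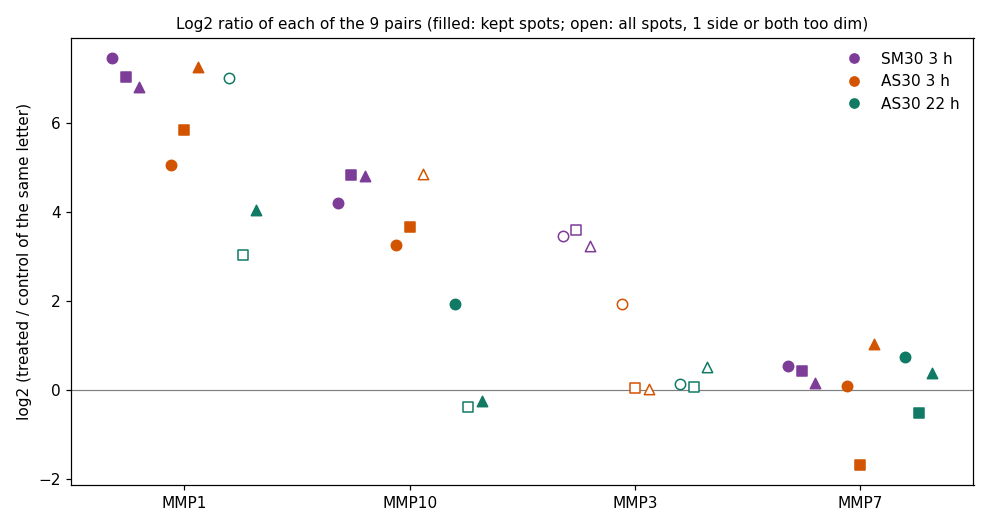
Log2 ratio of treated cells over the control of the same letter for each of the 9 pairs, for MMP1, MMP10, MMP3 and MMP7, by NP and recovery time, with filled points where both sides had kept spots and open points where all spots were used. The MMP1 ratios lay above 3 in all 9 pairs, those of MMP10 above 3 in the 6 pairs at 3 h but around 0 in 2 of the 3 pairs at 22 h, and those of MMP7 on both sides of 0.

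MMP3, stromelysin 1, lay next to MMP1 and was removed by the filter, because its spot was positive on 7 of 18 arrays. Its log2 signal in SM30-treated cells was 5.99, 6.14 and 5.75, and in their controls 2.54, 2.55 and 2.51. It was well above background on all 3 SM30-treated arrays and on none of the 9 control arrays. In AS30-treated cells at 3 h it was 4.50, 2.58 and 2.56, with A alone well above background, and at 22 h it was 2.67, 2.61 and 3.09, with none. MMP3 was at least 3.52-fold higher after SM30, against the lowest signal well above background in the controls, and a fit with all spots kept gave a called rise (limma adjusted p = 0.0051). In that fit 1.96% of the 41000 probes were called higher. With normexp and its offset the value was 1.34-fold, a plain ratio over the controls' own signals and not a bound. Without SM30 pair B the fit with all spots kept gave a limma adjusted p of 0.057. No fold is given after AS30. The SM30 and AS30 responses of MMP3 were not told apart by the test of their difference (2.76 on the log2 scale with all spots kept, SE 0.49, limma adjusted p = 0.28).

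MMP7, matrilysin, which is made by many epithelia, was well above background on all 18 arrays. Its log2 signal was 12.85, 12.95 and 13.08 in SM30 controls and 13.38, 13.37 and 13.23 in SM30-treated cells. In AS30 controls it was 13.52, 12.65 and 10.499 at 3 h and 12.76, 11.82 and 11.51 at 22 h. In AS30-treated cells it was 13.62, 10.97 and 11.54 at 3 h and 13.51, 11.30 and 11.89 at 22 h. SM30-treated arrays were each a little above all SM30 controls, while the AS30 groups overlapped wholly and letter A was the highest in all 4 of them. None of the changes was called: 0.37 after SM30 (limma adjusted p = 0.65), -0.18 after AS30 at 3 h (0.83) and 0.21 at 22 h (0.82). The 95% intervals ran from 0.642-fold to 2.59-fold after SM30, from 0.439-fold to 1.77-fold after AS30 at 3 h and from 0.575-fold to 2.32-fold at 22 h. All 3 rest on the same SE of 0.44, as the classes share the estimate of the spread. The SD of the ratios was 0.20 after SM30, 1.38 after AS30 at 3 h and 0.65 at 22 h. The SM30 interval and p-value therefore carry the wider spread of the AS30 pairs.

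The other members were dim. MMP8, the neutrophil collagenase, MMP13, the third collagenase, and the MMP12 probe A_23_P150316 had no positive spot on any of the 18 arrays. MMP20 had a positive spot on 1 array and MMP27 on 3, and none of these was well above background. The second MMP12 probe, A_23_P340698, had a positive spot on 6 arrays. It was at 7.01 in AS30-treated B at 3 h, the one array where it was well above background, at 6.28 in AS30 control C at 3 h and at 4.65 in AS30-treated C. On the other 15 arrays it lay between 2.80 and 4.31. The 2 MMP12 probes therefore disagreed on that array, where the first was not positive. With all spots kept none of the probes of MMP8, MMP12, MMP13, MMP20 and MMP27 was called in the 3 comparisons with controls, where 3.15%, 0.668% and 1.24% of the 41000 probes were called in either direction, and what their signals allow is a bound on the level, not an absence of the transcript.

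**Figure D3:**
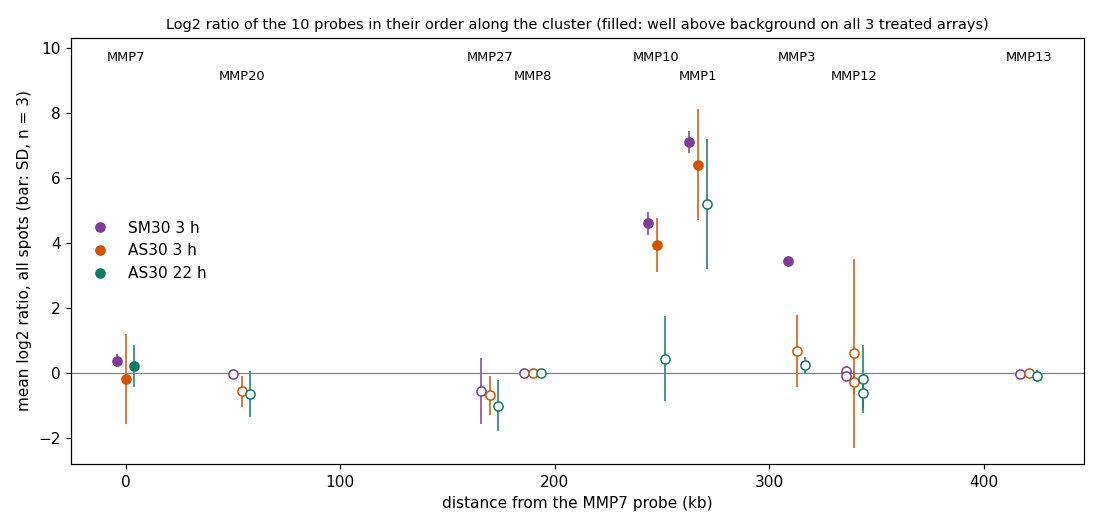
Mean log2 ratio of the 10 probes, all spots kept, with the SD of 3 pairs as bars, against the distance from the MMP7 probe in kb, by NP and recovery time, with filled points where the probe was well above background on all 3 treated arrays. The high ratios lay at MMP10, MMP1 and, for SM30, MMP3, which are neighbours, while MMP7 at one end lay near 0. MMP13 at the other end had no positive spot on any array, and MMP8, MMP12, MMP20 and MMP27 were dim as well. The map therefore does not show where the rise ends.

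Of the 3 member probes tested, 2 were called higher after SM30, against 4.35% of all probes, 2 after AS30 at 3 h, against 1.5%, and 1 after AS30 at 22 h, against 2.54%, the last being MMP1 on a single ratio over a control not well above background. MMP1, MMP10 and MMP7 had a positive spot on 16, 15 and 18 of the 18 arrays, so none of them passed the filter through treated arrays alone. The filter removed the other members, MMP3 among them, so these counts hold for the 3 probes that passed and say nothing of the 9 genes. MMP10, MMP1 and MMP3 stood next to each other within the cluster. The distance from the MMP7 probe was 247.4 kb for MMP10, 266.7 kb for MMP1 and 312.7 kb for MMP3.

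The SM30 arrays and the AS30 arrays lay on different slides, and each set had controls of its own. The NP, the set of cultures and the slide therefore cannot be told apart when their responses are compared. The difference between the SM30 and AS30 responses at 3 h was then tested at the same dose and time, in 3 members. For MMP1 it was 1.05 on the log2 scale (SE 0.54, limma adjusted p = 0.42), with a 95% interval from 0.838-fold to 5.12-fold. For MMP10 it was 1.15 (SE 0.61, limma adjusted p = 0.44), with an interval from 0.801-fold to 6.11-fold, and for MMP7 it was 0.55 (limma adjusted p = 0.71). None of the 3 was called, against 0.014% of all probes, and the intervals allow a stronger response to SM30 of several fold as well as none. With all spots kept the difference was 0.69 for MMP1 and 0.68 for MMP10. With normexp, whose offset makes the folds of dim genes smaller, it was 0.13 and 0.28, and none of these was called. For MMP1 the mean log2 signal was 11.67 in both treated groups. SM30 controls against AS30 controls were at -1.05 (SE 0.85) in the filtered fit, where AS30 control C was read from its positive spots only. With all spots kept they were at -0.70 (SE 0.92), and neither was called. The change in the AS30 response from 3 h to 22 h was -2.01 for MMP1 (SE 0.77, limma adjusted p = 0.27) and -2.61 for MMP10 (SE 0.67, limma adjusted p = 0.17), with 95% intervals from 0.0692-fold to 0.894-fold and from 0.0539-fold to 0.499-fold that hold for each gene alone. The 22 h side of MMP1 was the single ratio of pair C, and with all spots of the 3 pairs kept the change was -1.21 (SE 1.11, limma adjusted p = 0.71). Neither passed the adjustment, against 0.0285% of all probes called. Both comparisons share the AS30 ratios at 3 h.

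Among controls, no member was called between SM30 and AS30 at 3 h, where 26.8% of all probes were called, or between 22 h and 3 h, where 1.3% were. The slide that each array was scanned on differed between groups. SM30 controls and SM30-treated A shared a slide, and within it MMP1 was 7.19 and MMP10 4.49 higher in the treated array on the log2 scale, with 3 and 2 of the 3 controls well above background. MMP3 was well above background on that treated array and on none of these controls. AS30-treated cells at 22 h and their control C shared a slide, and within it the difference was 0.73 for MMP7 and -1.32 for MMP10, which was not positive in treated B. No difference is given for MMP1 there, as this control did not hold it well above background. At 3 h AS30-treated cells and their controls lay on different slides, so for MMP1 and MMP10 the slide and the exposure cannot be told apart there. Scan time split the SM30 controls too, with A scanned apart from B and C.

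The summed signals of some markers of other cell types moved with the exposure. That of the 6 leukocyte genes ranged from 743.9 to 786.8 in SM30 controls and from 1198 to 1249 in SM30-treated cells, from 713.3 to 889.4 in AS30 controls and from 1292 to 1671 in AS30-treated cells at 3 h, and from 911.3 to 1067 and from 1648 to 3502 at 22 h. CD68 had the highest signal of the 6 throughout, from 8.78 to 11.62 on the log2 scale. Of 3 leukocyte markers tested, CSF1R alone was called after SM30 (log2 change 1.41, limma adjusted p = 0.0086), against 7.66% of all genes called in either direction. None was called after AS30 at 3 h, against 2.62%. At 22 h, where 3.83% of all genes were called, CD68 was called (1.67, limma adjusted p = 0.02). CD14 was at -0.24, 0.62 and -0.02 in the 3 comparisons. CSF1R had 1 ratio at 22 h and no control well above background. Against the lowest signal well above background in those controls its bound was 0.617-fold, so no rise is given. The summed signal of the 7 fibroblast genes ranged from 190.4 to 233.9 in SM30 controls and from 254.3 to 305.9 in SM30-treated cells, from 177.6 to 244.6 in AS30 controls and from 280.6 to 375.9 in AS30-treated cells at 3 h, and from 160.4 to 381 and from 120.3 to 186.6 at 22 h. Of 3 fibroblast markers tested none was called at 3 h after either NP, against 7.66% and 2.62% of all genes called in either direction. Of 2 tested at 22 h, LUM was lower, on 1 ratio. The part of these markers in the MMP results was not tested. The sums of the 4 endothelial genes overlapped between treated cells and controls in all 3 comparisons. In bulk RNA a change in the share of cells and a change in RNA per cell cannot be told apart.

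The genes around the cluster and the genes that act with MMPs were read from lists. Of 16 genes that flank the cluster on chromosome 11, 12 were tested after SM30 and none was called, against 7.66% of all genes called in either direction, with a median log2 change of -0.01 against -0.07 over all genes. None of 12 was called after AS30 at 3 h, against 2.62%, and none of 11 at 22 h, against 3.83%, with medians of -0.06 and 0.12. At these shares a list of this size would hold few calls or none. The nearest, TMEM123, was at -0.11, -0.51 and -0.22, and DCUN1D5 at -0.14, -0.05 and -0.13. BIRC3, an inhibitor of apoptosis beside them, was at 0.21, -0.43 and 0.53.

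Among 15 transcription factors of the AP-1, ETS and RUNX families and C/EBP beta, 5 were called higher after SM30, against 4.24% of all genes tested. None was called lower, and the changes ran from -1.25 to 1.41 with a median of 0.52. The 5 called higher were JUN (2.55-fold, SE 0.17 on the log2 scale, limma adjusted p = 0.0047), CEBPB (2.20-fold, adjusted p = 0.013), RUNX1 (1.64-fold), FOSL2 (1.63-fold) and ETS2, which was named after its values were seen. After AS30 at 3 h, where 1.61% of genes were called higher, CEBPB alone was called (2.02-fold, limma adjusted p = 0.04), and the median was 0.38. None was called at 22 h, where 2.72% were called higher, and the median was -0.07. The largest change there was that of FOSB, -1.67 on the log2 scale (limma adjusted p = 0.12). It was negative in all 3 pairs, with 2 treated arrays well above background.

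Among the ligands and receptors known to induce MMPs, 3 of 14 rose after SM30, against 4.24% of all genes. These were TNF, an inflammatory cytokine (3.50-fold, limma adjusted p = 0.0051, with 1 of 3 controls well above background), the growth factor FGF2 (1.67-fold) and F2RL1, the protease-activated receptor 2 (1.62-fold). F2RL1 alone rose of 14 after AS30 at 3 h (1.93-fold, limma adjusted p = 0.03), against 1.61% of all genes. OSMR, a receptor chain for oncostatin M, alone rose of 13 at 22 h (1.71-fold, limma adjusted p = 0.047), against 2.72%.

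Of 13 genes of proenzyme activation, 2 rose after SM30, against 4.24% of all genes, and the same 2 after AS30 at 3 h, against 1.61%. PLAUR, the urokinase receptor, rose 3.23-fold after SM30 (limma adjusted p = 0.0022) and 2.53-fold after AS30 (adjusted p = 0.014). PLAU, urokinase, which turns plasminogen into plasmin, rose 2.44-fold and 1.96-fold. At 22 h PLAUR (2.03-fold) and PLAT, the tissue plasminogen activator (2.16-fold, limma adjusted p = 0.026), rose of 12 tested, against 2.72%.

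Of 8 inhibitors, 2 rose after SM30, against 4.24% of all genes. TIMP3 was at least 3.19-fold higher (limma adjusted p = 0.0043), as it was well above background on all 3 treated arrays and on no SM30 control array, and SERPINE2, protease nexin 1, rose 1.79-fold. None of 8 was called after AS30 at 3 h, against 2.62% called in either direction, and SERPINE2 (1.70-fold) and TIMP4 (1.58-fold) rose at 22 h, against 2.72% called higher. Of 9 matrix substrates, none was called at 3 h after either NP, against 7.66% and 2.62% of all genes called in either direction. COL4A1, a chain of basement membrane collagen, fell at 22 h (log2 change -0.87, limma adjusted p = 0.043), where 1.11% of genes were called lower. Of the MMP genes outside the cluster, MMP9, gelatinase B, was the only one called after SM30 (1.63-fold, limma adjusted p = 0.041), 1 of 10 against 4.24% called higher. None was called after AS30 at 3 h (of 9, against 2.62% called in either direction) or at 22 h (of 10, against 3.83%).

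**Figure D4:**
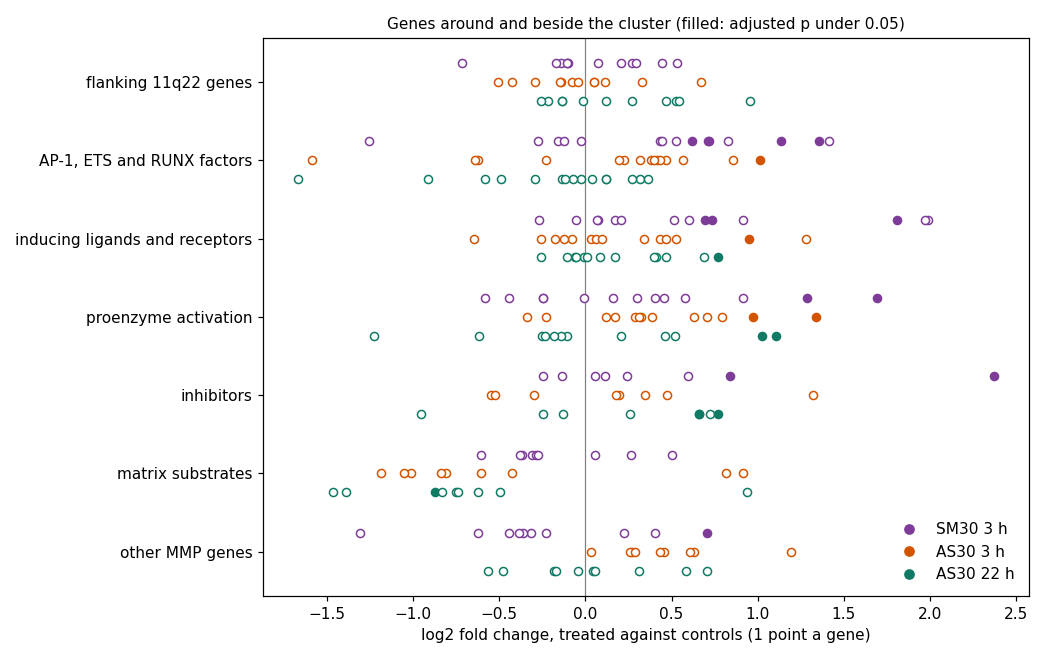
Log2 fold change against controls for each tested gene of 7 lists, by NP and recovery time, with filled points where the limma adjusted p was under 0.05. The flanking genes hold no filled point, and the filled points of the proenzyme activation list lie above 0.9 for all 3 comparisons.

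The genes whose level over the 18 arrays was most like that of MMP1, among 23030 probes with no missing value, were KIAA1370 (Pearson r = 0.97), BF213738 (0.96), PTPRH (0.96), a receptor tyrosine phosphatase, ANTXR2 (0.96), an anthrax toxin receptor, and CCNG2 (0.96), cyclin G2. Those most like MMP10 were KLF6 (0.94) and MXD1 (0.93), both transcription factors, FLJ32255 (0.92), UBE2B (0.92), an E2 ubiquitin-conjugating enzyme, and CCNG2 (0.91). MMP1 and MMP10 were correlated at 0.87, MMP1 and MMP3 at 0.64 and MMP1 and MMP7 at 0.25. These values describe 18 arrays that fall into treated and control groups and share slides. The log2 change of KLF6 was 2.17 after SM30, 1.49 after AS30 at 3 h and 0.25 at 22 h, beside 4.60, 3.46 and 0.85 for MMP10, whose change at 22 h was not called. KIAA1370 was at 1.07, 0.77 and 0.73, a smaller decline between 3 h and 22 h.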

How the data were processed

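Total RNA of 18 A549 samples was labelled with Cy3 and hybridised to 1-colour Agilent arrays. The authors deposited scanner files written by Agilent Feature Extraction 10.5.1.1 with background-corrected spot intensities on a linear scale, and a table of intensities that they had quantile normalized, with replicate spots averaged. Columns not used numbered 0. Groups and letters came from the labels.

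Here, as the methods describe, the log2 of the processed signal was quantile normalized over 18 arrays, spots that were not positive and significant were set to missing, replicate spots were averaged and probes with more than 33% missing values were removed. Leaving out outlier-flagged spots was a step added here. Log2 ratios of treated cells over the control of the same letter, the division that the methods use, were fitted with limma 3.58.1 in R 4.3.3 as 3 classes (6 residual degrees of freedom). Controls were compared in a fit of 18 arrays as 6 groups. P-values were adjusted by Benjamini-Hochberg over all probes tested, and fits were tested on simulated data. Dim members were described with all spots kept. For a gene with several probes the brightest was used in the lists. From each list up to 4 called genes of largest change with 1 sign in all 3 pairs were named. Members and lists were chosen with earlier results of these data known. Quantile normalization draws dim spots together, so low log2 levels carry little information, and the number of arrays limits the precision. Alternatives covered normalization, background, filters, the deposited table, pairing, slide and each left-out pair. Same-letter arrays deviated together with correlations from -0.09 to 0.48, so the letters share a name and are not shown to pair the cultures.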

Additional observations from a re-analysis of the deposited data

Results flagged for a closer look

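The filter on dim spots removed 2 probes that were well above background in treated cells but on no control array of the same comparison. MMP3 was well above background on 3 of 3 SM30-treated arrays, at log2 signals from 5.75 to 6.14, and on 1 of 3 AS30-treated arrays at 3 h, at 4.50. The MMP12 probe A_23_P340698 was well above background on 1 of 3 AS30-treated arrays at 3 h, at 7.01, while the other MMP12 probe had no positive spot on any array.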

How the results depend on the processing

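Counts are of member probes called. The 2 calls after SM30 at 3 h stood under 75th-percentile scaling, normexp, outlier spots kept, the authors' table, no replicate block, both slide fits, the mean of the 3 controls and each left-out pair. With only spots well above background kept, MMP10 was not tested and counts were 1 after SM30, 1 after AS30 at 3 h and 0 at 22 h. With no missing value allowed MMP7 alone was tested and all 3 counts were 0. After AS30 at 3 h, slide as a fixed block left MMP7 alone to test and a count of 0. After AS30 at 22 h the count of 1 became 0 with normexp, with no replicate block and in both slide fits. Leaving out 1 pair, counts ranged from 1 to 2 after AS30 at 3 h and from 0 to 1 at 22 h. Over the mean of the 3 controls, which leaves out the controls' spread, MMP10 was called in the SM30 minus AS30 difference and in the 22 h minus 3 h difference, a count of 1 in each against 0. Counts of 0 between control groups stayed at 0 with the replicate block. The cause of these shifts was not tested, beyond the probes that could not be tested.

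Signs turned only in values that were not called. With slide as a fixed block MMP7 was at 0.76 after AS30 at 3 h, 0.54 between AS30 controls at 22 h and 3 h, -0.026 for AS30 at 22 h minus 3 h and -0.33 for SM30 minus AS30. Leaving out 1 pair or control array, MMP7 ranged from -0.79 to 0.57 after AS30 at 3 h, from -0.064 to 0.57 at 22 h, from -0.36 to 1.00 for AS30 at 22 h minus 3 h, from -0.20 to 1.16 for SM30 minus AS30, from -0.13 to 1.39 between SM30 and AS30 controls and from -1.06 to 0.46 between AS30 controls at 22 h and 3 h. MMP10 at 22 h ranged from -0.24, without pair A, to 1.93, without pair C. With all spots kept, alternatives chosen after seeing the data put MMP3 after AS30 at -0.0086 (3 h) and -0.89 (22 h) under 75th-percentile scaling, and the MMP12 probe A_23_P150316 at 0.018 (22 h) under normexp. The MMP12 probe A_23_P340698, leaving out 1 pair, ranged from -0.0098 to 0.077 after SM30, from -1.04 to 1.72 after AS30 at 3 h and from -0.76 to 0.26 at 22 h.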
